A study of Mus musculus with 6 samples.

Results

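The interferon-stimulated genes are the genes that cells switch on when an interferon binds its receptor. A list of 35 of them was followed here in 6 mouse liver tumours, of 27412 genes and unnamed transcripts tested in all. A gene was taken as measured through the array probe whose accession maps to its symbol, with the brightest probe standing for a gene that has several. This matched 33 of the 35 genes, and all 33 passed the filter on dim probes. Mx1 and Mx2 were not matched and are not analysed here. Of the 33, 32 were well above background on all 6 arrays, and Oas3, which passed through the Epcam-derived groups, was not on the Albumin arrays.

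The tumours are hepatocellular carcinomas (HCC) of C57BL/6 mice, with 2 tumours in each of 3 groups and 1 single-colour array for each tumour. Albumin-derived tumours without CLC came from Alb-AID mice killed at an age of 90 weeks. Epcam-derived tumours came from Epcam-AID mice that received tamoxifen and then ate a diet with 0.1% DDC for 8 months, and they were divided into those without and those with a CLC component. The series title calls the Epcam-derived tumours progeny of ductular progenitor cells. The labels spell out neither CLC nor AID nor DDC, and the labels used here give no sex and no age for the Epcam-AID mice. Origin, tamoxifen, diet and age therefore change together between Albumin-derived and Epcam-derived tumours and cannot be told apart, while the Epcam-derived groups differ by label in CLC alone. Nothing in the labels says whether the tumours of a group grew in separate mice, so p-values measure only the spread between these samples.

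Type I interferons bind a receptor made of Ifnar1 and Ifnar2, and the kinases Jak1 and Tyk2 then activate Stat2, which joins Irf9 in a complex that binds a DNA element called the interferon-stimulated response element (ISRE). Interferon gamma binds Ifngr1 and Ifngr2 and acts on another element, the gamma-activated site (GAS). The induced genes encode sensors of foreign nucleic acid, proteins that block viral RNA and budding, GTPases that attack the vacuoles of intracellular microbes, and the factors that amplify or end the response. In liver they are known from viral hepatitis, and both hepatocytes and the macrophages between them can express them.

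The DNA before the start sites shows what many of these genes share. In RefSeq promoter windows of GRCm38.p6, each from 250 bases before to 50 bases after a gene's start, 25 of the 33 genes had an entry, 5 of them with 2 windows. The letters GAAANNGAAA, the core of an ISRE, were searched on both strands. They stood in a window of 15 of the 25 genes (60.0%), against 3.99% of all 27025 genes in the table. GAS letters, TTCNNNGAA, which read the same on both strands, were present in 6 of the 25 (24.0%) and in 9.55% of all genes. In 12 of the genes an ISRE core began between 200 bases before the start and the start itself. A match here describes letters in a window and was not tested as a binding site.

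Printed next, 5′ to 3′ on the gene's own strand, are the 200 bases before the start of the 3 genes with the widest range over the tumours (Ifit1, Ifit3 and Oas3), of Isg15, a widely used marker of the family, and of Bst2, whose level followed the others least. Isg15 and Bst2 were added after their values were seen. Capitals mark the ISRE cores, and several cores that overlap form 1 run of capitals.
Ifit1, chr19:34640689-34640888, plus strand, GRCm38.p6: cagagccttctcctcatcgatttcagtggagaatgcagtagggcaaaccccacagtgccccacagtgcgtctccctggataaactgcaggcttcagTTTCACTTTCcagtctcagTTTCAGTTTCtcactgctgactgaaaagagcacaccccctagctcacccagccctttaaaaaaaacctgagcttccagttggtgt
Ifit3, chr19:34583329-34583528, plus strand, GRCm38.p6: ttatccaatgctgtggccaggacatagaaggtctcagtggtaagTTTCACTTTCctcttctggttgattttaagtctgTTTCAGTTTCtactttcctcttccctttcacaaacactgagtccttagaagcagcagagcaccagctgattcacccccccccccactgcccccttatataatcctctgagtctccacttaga
Oas3, chr5:120777660-120777859, minus strand, GRCm38.p6: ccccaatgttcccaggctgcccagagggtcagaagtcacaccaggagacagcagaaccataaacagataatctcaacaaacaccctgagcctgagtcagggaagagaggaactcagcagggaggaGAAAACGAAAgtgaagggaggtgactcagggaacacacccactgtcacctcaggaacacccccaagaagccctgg
Isg15, chr4:156200819-156201018, minus strand, GRCm38.p6: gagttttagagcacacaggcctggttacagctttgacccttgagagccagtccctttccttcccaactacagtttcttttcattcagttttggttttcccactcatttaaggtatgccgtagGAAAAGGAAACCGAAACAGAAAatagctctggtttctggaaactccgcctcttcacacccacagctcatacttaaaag
Bst2, chr8:71537473-71537672, minus strand, GRCm38.p6: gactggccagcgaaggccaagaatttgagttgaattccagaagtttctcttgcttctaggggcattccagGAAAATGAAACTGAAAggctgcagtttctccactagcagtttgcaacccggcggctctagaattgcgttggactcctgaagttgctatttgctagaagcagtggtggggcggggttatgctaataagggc

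Ifit1 holds cores whose first bases lie at -104 and -85, and Ifit3 has them at -156 and -122. Oas3 has 1 core, at -75. Isg15 carries 3 overlapping cores at -78, -72 and -66. The cores of Bst2 overlap as well, at -130 and -124, and a GAS match at -136 overlaps the first. Neither of the 2 windows of Ifit2 contained an ISRE core, although Ifit2 varied nearly as much as its neighbours Ifit1 and Ifit3 on chromosome 19.

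Levels are given as the log2 of the processed array signal minus the 75th percentile of the same array, so 0 is the level of a fairly bright spot and a step of 1 is a doubling. A level belongs to its own probe and is compared only between tumours, never between genes. In every sentence with 6 levels, the first pair is the Albumin-derived tumours, the second the Epcam-derived tumours without CLC and the third those with CLC, with replicate 1 before replicate 2.

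The members moved together from tumour to tumour, and the order of the tumours did not follow the groups alone. After each gene was centred on its own mean, the median of the 33 was -0.47 and -1.06 for the Albumin-derived pair, -0.31 and 0.70 for the pair of Epcam origin that lacked CLC, and -0.18 and 1.23 for the pair that had it. The same median over all features lay between -0.05 and 0.05 on every array. Replicate 2 with CLC had the highest level of 26 members, replicate 1 of the Albumin-derived tumours of 4 and replicate 2 without CLC of 3. Replicate 2 of the Albumin-derived tumours had the lowest level of 26.

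**Figure D1:**
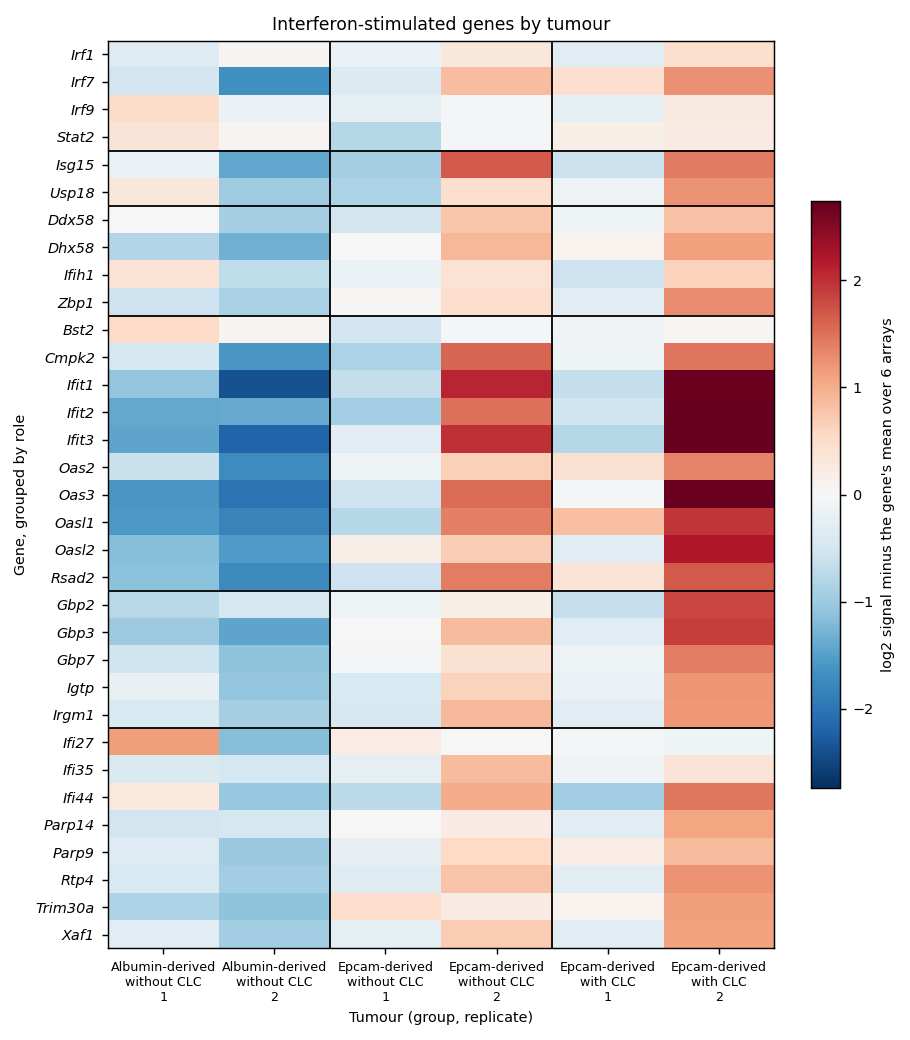
Log2 signal of the 33 measured interferon-stimulated genes (rows, grouped by role) in the 6 tumours (columns), each gene centred on its mean over the arrays; red is above and blue below that mean. Replicate 2 of both Epcam-derived groups is red for most genes, and replicate 2 of the Albumin-derived tumours is blue, with the lowest level of 26 members.

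Tumours of 1 group differed widely for these genes. With CLC, replicate 2 was higher than replicate 1 in 32 of 33 members, with a median difference of 1.37, and over all features replicate 2 was higher in 51.7%. Without CLC, the Epcam-derived replicate 2 was higher in 31 of 33 members, with a median difference of 0.97, against 48% of all features. In the Albumin-derived tumours the order was turned, with replicate 2 higher in 4 of 33 members, a median difference of -0.57 and 49.6% over all features. The typical size of a replicate difference over all features was a median absolute value of 0.34, 0.38 and 0.39 in the Albumin-derived group, the Epcam-derived group without CLC and the group with CLC. Replicate numbers are names within a group and carry no order.

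**Figure D2:**
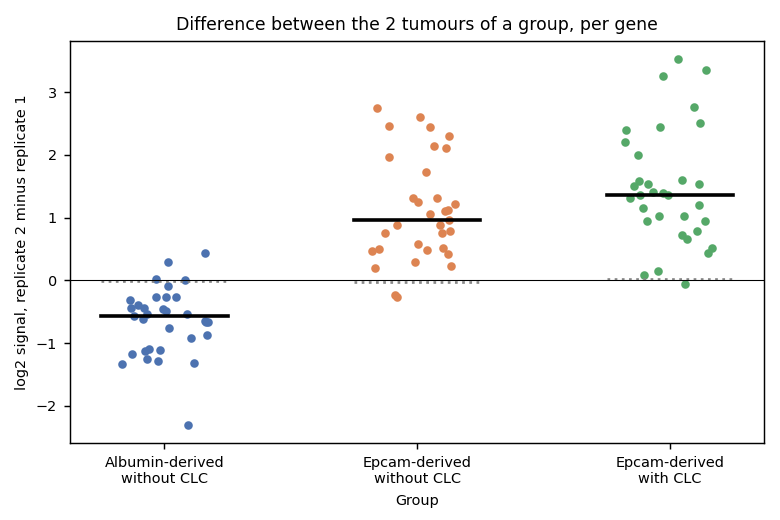
Difference between replicate 2 and replicate 1 in log2 signal for each of the 33 measured genes (points, spread sideways for visibility) in each group; the black bar is their median and the dotted grey bar the median over all features. The medians of the genes are -0.57, 0.97 and 1.37, while the median over all features is near 0 in each group.

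Several technical values differed between arrays, and they followed this order only in part. The arrays sat on 2 slides per the file headers, with both Albumin-derived tumours and replicate 1 with CLC on slide 1, and both Epcam-derived tumours without CLC and replicate 2 with CLC on slide 2. Between 63.1% and 64.7% of probes were well above background on the slide 2 arrays, against 52.0% to 56.6% on the slide 1 arrays. The 75th percentile of the processed signal was 285 to 315 on slide 1 and 424 to 488 on slide 2, and no spot on any array was marked saturated. Within slide 1 the member medians spanned -1.06 to -0.18, and within slide 2 they spanned -0.31 to 1.23, so the tumours of 1 slide also differed. The Epcam-derived tumours without CLC shared no slide with the Albumin-derived tumours, and for that comparison slide and group cannot be told apart.

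Setting the 2 Epcam-derived groups against each other asks which genes go with the CLC component. Here 30 of the 33 members had a higher mean with CLC, and the log2 differences had a median of 0.30 and ran from -0.18 to 1.09. The median over all features was -0.06, and 43.1% of them were higher. None of the members passed limma's adjusted p of 0.05, nor did any feature (0%). At an unadjusted p under 0.05 limma called no member higher, against 1.31% of all features. In 1 member, Stat2, both tumours with CLC were above both without, against 10.3% of all features, and in 1, Ifi27, both were below, against 19.8%.

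Inside that comparison the tumours on slide 2 gave another size. With replicate 2 with CLC set against both tumours without CLC on the same slide, the median member difference was 1.03 and 32 of 33 members were higher. Leaving out replicate 2 with CLC turned the median to -0.39, and leaving out replicate 1 without CLC turned it to -0.12. The direction of the median therefore rested on single tumours, and the pooled replicate SD of the members' array medians was 0.75.

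Between Epcam-derived tumours without CLC and Albumin-derived tumours, 30 of the 33 members were higher in the former, and their median log2 difference was 0.90 against 0.06 over all features, of which 53.5% were higher. Limma called 0 members at an adjusted p under 0.05, where it called 67 features (0.244%). At an unadjusted p under 0.05 limma found 4 members higher and 0 lower, against 11.7% of features higher. In 20 members, 19 without Oas3, both Epcam-derived tumours lay above both Albumin-derived tumours, against 30.4% of features, and in 2, Stat2 and Bst2, both lay below, against 24.8%. With slide as a block, a fit that rests for this comparison on the tumours with CLC, the median was -0.61 and 9 of 33 members were higher.

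Set against the same Albumin-derived tumours, the tumours with CLC had 29 of 33 members higher, with a median of 1.22 against -0.01 over all features, of which 49.3% were higher. No member passed limma's adjusted threshold, which 17 features (0.062%) passed. Unadjusted limma p-values under 0.05 were found for 11 members, all higher, against 7.95% of features; Oas3 is 1 of the 11, and since it was not above background in the Albumin-derived tumours it leaves 10 that were measured on both sides. In 21 members, 20 without Oas3, the groups did not overlap with the tumours with CLC on top, against 23.8% of features, and 1, Bst2, lay below without overlap, against 27%. Within slide 1, where replicate 1 with CLC met both Albumin-derived tumours, the median was 0.42 and 25 of 33 were higher; without replicate 1 with CLC the median was 2.02. The 3 comparisons share groups, so their values stand side by side and do not support each other.

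**Figure D3:**
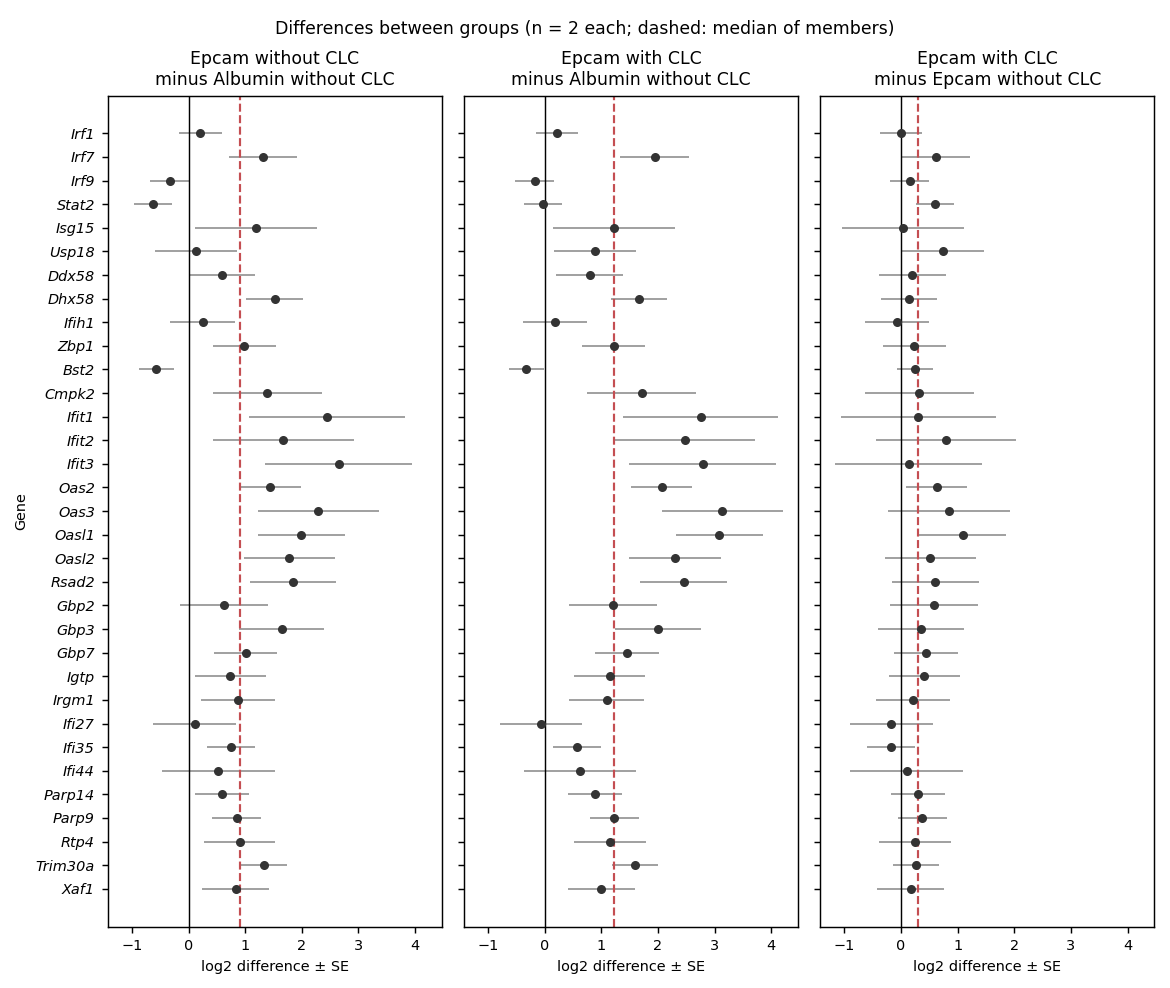
Log2 difference (points) with its standard error from limma (bars) for the 33 measured genes in the 3 comparisons, with 2 tumours in each group; the dashed line is the median of the genes, at 0.90, 1.22 and 0.30 from left to right. Most points lie right of 0 against the Albumin-derived tumours, and the error bars with CLC against without mostly cross or touch 0.

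Among the transcription factors, Irf7, the factor that amplifies type I interferon production, had the widest range over the tumours, at 2.91. The ranges of Stat2, Irf1 and Irf9 were 1.13, 0.79 and 0.76. Irf7 read 4.37, 3.19, 4.49, 5.71, 5.33 and 6.11. Both Epcam-derived groups lay above both Albumin-derived tumours, by a narrow gap for replicate 1 without CLC. The difference with CLC against Albumin was 1.94 ± 0.60 (SE, n = 2 a group; limma, adjusted p = 0.231), and with against without CLC it was 0.62 ± 0.60 (limma, adjusted p = 0.999).

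Stat2, the subunit that brings the activation domain to the complex with Irf9, read 2.86, 2.59, 1.73, 2.48, 2.66 and 2.74. The tumours without CLC were lowest, and the groups with CLC and Albumin overlapped. With CLC it was 0.60 ± 0.34 higher than without (limma, adjusted p = 0.999), the smallest p among the members in that comparison. Irf9, which holds the complex on DNA, stayed between 1.99 and 2.75, and Irf1, a factor that interferon gamma induces strongly, between 2.75 and 3.54. Both overlapped in all comparisons.

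Isg15 is a small ubiquitin-like protein that is attached to other proteins, and Usp18 removes it and also quiets the interferon receptor. Isg15 read 3.62, 2.36, 2.88, 5.48, 3.21 and 5.21. It was high in replicate 2 of both Epcam-derived groups and all groups overlapped. Usp18 read 2.18, 0.90, 1.02, 2.33, 1.74 and 3.11. Its levels overlapped in all comparisons too, and its difference with against without CLC was 0.74 ± 0.72 (limma, adjusted p = 0.999).

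Of the nucleic acid sensors, Dhx58, which encodes LGP2 and tunes the sensors Ifih1 and Ddx58, set the Albumin-derived tumours apart. Dhx58 read -0.56, -1.09, 0.25, 1.14, 0.32 and 1.35. All 4 Epcam-derived tumours were above both Albumin-derived ones. The differences from Albumin were 1.52 ± 0.50 without CLC (limma, adjusted p = 0.192) and 1.66 ± 0.50 with CLC (limma, adjusted p = 0.217).

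The other sensors differed in how far the groups overlapped. Zbp1, which binds nucleic acid in the Z form and can start necroptosis, read 0.31, -0.01, 0.92, 1.34, 0.57 and 2.16, with no overlap between Albumin-derived and either Epcam-derived group. Ddx58, which encodes RIG-I, ranged from 1.21 to 2.92, and Ifih1, which encodes MDA5, from 0.64 to 1.97. Both were highest in replicate 2 with CLC and lowest in replicate 2 of the Albumin-derived tumours, and their groups overlapped in all comparisons.

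The antiviral effectors had the widest ranges. As a group of 10 measured genes their centred median ran from -1.73 in replicate 2 of the Albumin-derived tumours to 2.08 in replicate 2 with CLC, and 9 of the 10, all but Bst2, had higher means in both Epcam-derived groups than in the Albumin-derived group. Their median difference was 1.81 without and 2.46 with CLC against Albumin, and 0.56 between the Epcam-derived groups.

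The Ifit proteins bind viral RNA through tetratricopeptide repeats, and their genes lie in 1 cluster on chromosome 19. Ifit1 read -1.21, -2.52, -0.80, 1.95, -0.79 and 2.56. Ifit3 read 0.34, -0.41, 1.46, 3.76, 0.98 and 4.51. Ifit2 read -2.15, -2.12, -1.68, 0.76, -1.29 and 1.96. In all 3 genes the 4 Epcam-derived tumours were above the Albumin-derived ones, and each replicate 2 of the Epcam-derived groups was far above its replicate 1, by 2.75 without CLC and 3.35 with CLC for Ifit1. None of the 3 was among the 6 smallest p-values of a comparison.

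The oligoadenylate synthetases make the second messenger that activates RNase L. Oas2 read 0.92, -0.19, 1.42, 2.18, 1.96 and 2.90, without overlap between Albumin-derived and Epcam-derived tumours. Its differences from Albumin were 1.43 ± 0.54 without CLC (limma, adjusted p = 0.232) and 2.06 ± 0.54 with CLC (limma, adjusted p = 0.185), and with against without CLC it was 0.63 ± 0.54 (limma, adjusted p = 0.999). Oas3 read -5.21, -5.65, -4.19, -2.09, -3.67 and -0.92 and was not well above background in either Albumin-derived tumour. Taken against the lowest signal that was well above background there, it was at least 2.84-fold higher without CLC and at least 5.11-fold higher with CLC (limma, adjusted p = 0.300 and 0.259).

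The Oasl proteins share the synthetase fold, and mouse Oasl1 is known as a brake on Irf7 translation. Oasl1 read 2.36, 2.09, 3.14, 5.29, 4.73 and 5.88. Both Albumin-derived tumours were below all 4 others, while replicate 2 without CLC lay between the tumours with CLC. With CLC it was 3.08 ± 0.77 above Albumin, 8.47-fold, with the smallest p of any member (limma, adjusted p = 0.169). Without CLC it was 1.99 ± 0.77 above Albumin (limma, adjusted p = 0.237), and with against without CLC it was 1.09 ± 0.77 (limma, adjusted p = 0.999).

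Within slide 1, replicate 1 with CLC still stood 2.51 above the mean of both Albumin-derived tumours for Oasl1. Oasl2, a neighbour of Oasl1 on chromosome 5 that keeps synthetase activity, read 0.02, -0.37, 1.34, 1.86, 0.87 and 3.37. Its difference of 1.78 ± 0.81 without CLC against Albumin (limma, adjusted p = 0.289) changed to -0.73 with slide as a block.

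Rsad2 encodes viperin, an enzyme that turns CTP into a chain terminator of viral RNA synthesis, and Cmpk2, its neighbour on chromosome 12, is a mitochondrial nucleotide kinase. Rsad2 read 0.03, -0.59, 0.59, 2.55, 1.52 and 2.83. No Epcam-derived tumour overlapped the Albumin-derived ones, and the differences were 1.85 ± 0.76 without CLC (limma, adjusted p = 0.259) and 2.45 ± 0.76 with CLC (limma, adjusted p = 0.231). Cmpk2 read -0.17, -1.29, -0.57, 1.89, 0.19 and 1.77, and there the tumours without CLC overlapped the Albumin-derived ones.

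Bst2, or tetherin, which holds budding virions on the cell surface, ran against the rest. Bst2 read 5.80, 5.34, 4.75, 5.25, 5.18 and 5.32. Both Albumin-derived tumours were above all 4 Epcam-derived tumours, by a gap of a few hundredths to replicate 2 with CLC, and the sign of the difference with CLC against Albumin turned under another scaling. Its promoter window holds ISRE and GAS letters as printed above. Its range over the tumours was 1.05, whereas that of Ifit1 was 5.08.

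**Figure D4:**
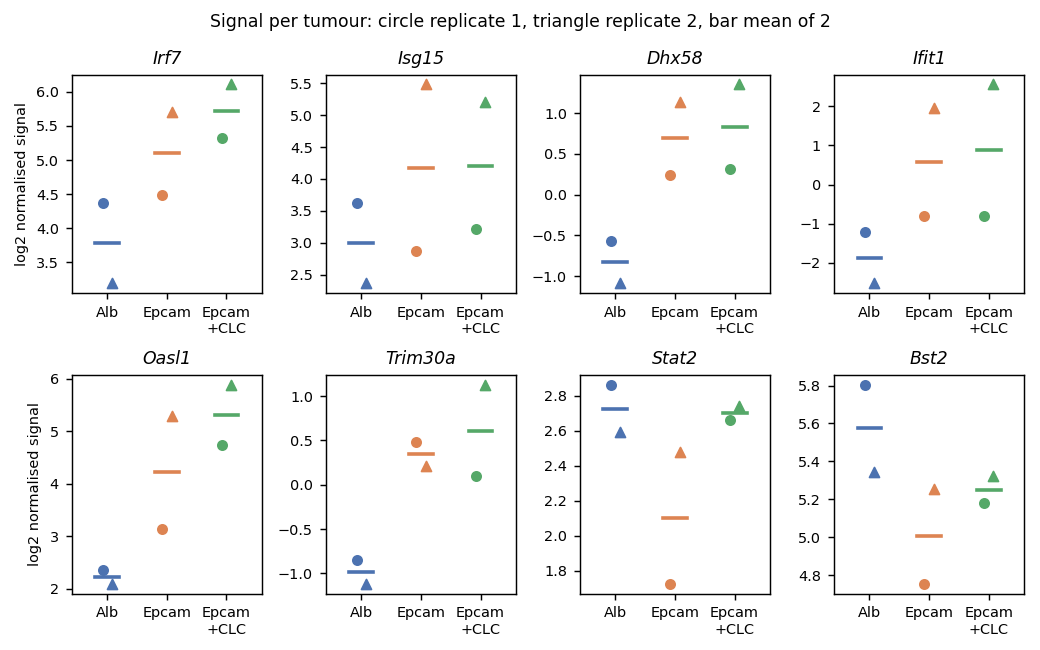
Log2 normalised signal of 8 genes in each tumour (circle replicate 1, triangle replicate 2) with the mean of the 2 tumours of a group (bar); the vertical axes differ between genes. Dhx58, Oasl1 and Trim30a separate the Albumin-derived tumours from the rest, Isg15 overlaps in all groups, and Bst2 is highest in the Albumin-derived tumours.

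Interferon-inducible GTPases coat the vacuoles of parasites and bacteria and respond strongly to interferon gamma. All 5 had higher means in both Epcam-derived groups than in the Albumin-derived group, with median differences of 0.88 without and 1.21 with CLC, and 0.41 between the Epcam-derived groups. Gbp3 read -0.50, -0.95, 0.48, 1.36, 0.17 and 2.38. Gbp7 read -2.03, -2.60, -1.54, -1.07, -1.63 and -0.10. Both guanylate-binding proteins kept all 4 Epcam-derived tumours above the Albumin-derived ones. Gbp2 read -0.69, -0.40, -0.07, 0.23, -0.56 and 1.88, and replicate 2 with CLC alone stood far from the other tumours. Of the immunity-related GTPases, Igtp ranged from 1.97 to 4.24 and Irgm1 from 1.13 to 3.22, each lowest in replicate 2 of the Albumin-derived tumours and highest in replicate 2 with CLC.

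Trim30a, a ubiquitin ligase family member that restrains inflammatory signalling, separated the Albumin-derived tumours from the rest among the remaining induced genes. Trim30a read -0.85, -1.12, 0.48, 0.21, 0.09 and 1.13. All 4 Epcam-derived tumours were above both Albumin-derived ones. The difference was 1.33 ± 0.40 without CLC (limma, adjusted p = 0.179) and 1.59 ± 0.40 with CLC (limma, adjusted p = 0.173).

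Parp9 and Parp14 belong to the ADP-ribosyltransferase family. Parp9 read 1.09, 0.43, 1.21, 2.00, 1.65 and 2.31, and Parp14 read 1.55, 1.57, 2.04, 2.27, 1.77 and 3.13. In both, the Albumin-derived tumours were below the rest, by a narrow gap. With against without CLC the difference of Parp9 was 0.38 ± 0.43 (limma, adjusted p = 0.999), and it fell to -0.01 without replicate 1 of the tumours without CLC.

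Rtp4, a chaperone for receptors, was the member whose profile came closest to the mean of the others. Rtp4 read 2.37, 1.84, 2.45, 3.56, 2.48 and 4.02, and Xaf1, which promotes apoptosis, read 0.58, -0.08, 0.60, 1.57, 0.55 and 1.95. In both, replicate 1 of the Epcam-derived groups stood close to replicate 1 of the Albumin-derived tumours. Ifi44 ranged from -0.46 to 2.02 with overlap in all comparisons, and Ifi35 from 3.62 to 4.96 with both Albumin-derived tumours lowest. Ifi27 read 7.13, 4.82, 6.20, 5.97, 5.94 and 5.88, so both extremes were Albumin-derived tumours.

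How alike the members were was measured by Pearson's r over the 6 arrays, as a description, since all genes share the same 6 arrays and their normalization. Over the 528 pairs the median r was 0.85, and 494 were above 0, with extremes of -0.52 and 0.996. Against the mean of the other members, r was 0.995 for Rtp4, 0.993 for Ifit1 and 0.992 for Xaf1. It was 0.25 for Irf9, 0.14 for Ifi27, 0.14 for Stat2 and -0.06 for Bst2, so these 4 did not follow the common profile. Of these genes, Ifit1, Stat2 and Bst2 hold an ISRE core in their promoter window, and Xaf1 and Irf9 do not. Rtp4 and Ifi27 had no window to search.

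Among 2833 named genes outside the list that varied at least as much as the median member, those most like the members' mean profile were Ifi209 (r = 0.980), Phf11b, Gm1966, Bdh2, Cdt1, Ifit3b, Adgrg5, Gvin1, Ccr6 and Prrg4 (r = 0.964). Ifi209, Phf11b and Ifit3b stand on the wider list of interferon-induced genes described next. Ifit3b, the near-identical neighbour of Ifit3, read -1.76, -2.50, -0.23, 2.33, -1.16 and 2.99, and how far the probes of both genes share signal was not tested.

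A wider list of other interferon-induced genes had 68 measured genes of 73 on the array. Its median difference was 0.17 with against without CLC, 0.46 without CLC against Albumin and 0.64 with CLC against Albumin, and 46, 50 and 52 of the 68 were higher. Limma called 0 of them at an adjusted p under 0.05 in any comparison. At an unadjusted p under 0.05 limma found 0 higher and 0 lower, 9 higher and 3 lower, and 15 higher and 3 lower. The 15 include 1 gene that was not above background in the Albumin-derived tumours. Over all 27412 features, 1.31%, 11.7% and 7.95% were higher at that threshold, and 596, 2270 and 2209 features were lower. These values also stand beside the counts of the lists below. The centred median of this list had the same highest and lowest tumours as the members, with 0.72 in replicate 2 with CLC and -0.55 in replicate 2 of the Albumin-derived tumours. Of the 62 genes of this list with a promoter entry, 30 (48.4%) held an ISRE core.

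Single genes of that list went both ways. Oas1c, another oligoadenylate synthetase, read -2.16, -3.34, -0.90, 0.53, -0.06 and 0.17, and was 2.56 ± 0.61 higher without CLC than in the Albumin-derived tumours (limma, adjusted p = 0.129). Shfl, which stops ribosomal frameshifting, read 4.80, 4.11, 2.63, 2.82, 3.55 and 2.95, with a difference of -1.74 ± 0.36 for the same groups (limma, adjusted p = 0.109). Cxcl9, a chemokine for T cells that interferon gamma induces, read 1.91, 0.85, 0.81, 0.75, 1.36 and 2.81, and had the smallest p of the list with against without CLC at 1.31 ± 0.59 (limma, adjusted p = 0.999). Sectm1a, a secreted and membrane protein, read -1.24, -1.50, -2.55, -3.24, -3.25 and -3.89, and had the smallest p of the list with CLC against Albumin at -2.20 ± 0.38 (limma, adjusted p = 0.111). For Tor3a, an interferon-induced ATPase, that difference was 1.70 ± 0.35 (limma, adjusted p = 0.128), and for Fcgr1, a high-affinity antibody receptor of myeloid cells, the difference with against without CLC was 0.85 ± 0.43 (limma, adjusted p = 0.999).

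The ligands themselves gave little signal. Ifnb1 was not well above background in any tumour, and Ifng was above it on 1 array, below the filter. Of 18 ligand genes on the array 10 passed the filter, and limma called 0 of these at an adjusted p under 0.05, with 0, 3 and 0 higher at an unadjusted p under 0.05 with against without CLC, without CLC against Albumin and with CLC against Albumin. Of those 3, Ifna11 and Ifna13 were not above background in the Albumin-derived tumours, and Ifna14 was 0.84 ± 0.31 higher (limma, adjusted p = 0.227). The many interferon alpha genes are near-identical copies, and their probes may share signal. All 10 ligands that passed the filter had a lower mean with than without CLC, with log2 differences from -2.50 to -0.08. Over all features 15584 of 27412 were lower, and 30 of 33 members were higher. The lowest of the 10, Ifna11, rests on 1 array, replicate 1 without CLC, which read -0.42 while the other 5 lay between -6.69 and -4.90. Within slide 2 the median of the 10 was -0.10, with 9 lower and 1, Ifnl3, higher. The ligands on the array that failed the filter had a higher mean with than without CLC in all but Ifna12. Apart from Ifng on 1 array, their signals were not well above background on any array.

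Most receptors and kinases kept to narrow ranges. Ifnar1 stayed between 2.74 and 2.93 in all tumours, and Ifngr1 between 2.78 and 3.51. The centred median of the 10 receptor and JAK-STAT genes lay between -0.18 and 0.09 on every array, and limma called 0 of the 10 at an unadjusted or adjusted p under 0.05 in any comparison. Ifngr2 had the smallest p of this list in both comparisons with Albumin, at -0.62 ± 0.31 without and -0.48 ± 0.31 with CLC (limma, adjusted p = 0.325 and 0.510), and Jak2 with against without CLC, at 0.35 ± 0.26 (limma, adjusted p = 0.999).

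Of 17 genes of nucleic acid sensing and signalling, limma called 0 at an adjusted p under 0.05. At an unadjusted p under 0.05 limma found 0, 4 and 5 higher and 0, 1 and 1 lower in the 3 comparisons in that order. The shares of all features higher were 1.31%, 11.7% and 7.95%. Tlr8 is 1 of the 4 and of the 5, but it was not above background in the Albumin-derived tumours, so 3 and 4 were measured on both sides. Aim2, a sensor of DNA in the cytosol, was 1.62 ± 0.47 higher without CLC than in the Albumin-derived tumours (limma, adjusted p = 0.170), and Ifi204, a DNA-binding protein, 1.19 ± 0.27 higher with CLC (limma, adjusted p = 0.148). Myd88, the adaptor of most Toll-like receptors, had the smallest p with against without CLC at 0.59 ± 0.25 (limma, adjusted p = 0.999). Tlr9 went the other way, with -0.91 ± 0.30 and -1.18 ± 0.30 (limma, adjusted p = 0.195 and 0.176). The 11 negative regulators gave 0 calls and no unadjusted limma p under 0.05, and Trex1, which degrades DNA in the cytosol, read 1.82, 1.82, 1.89, 3.13, 2.48 and 3.24.

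**Figure D5:**
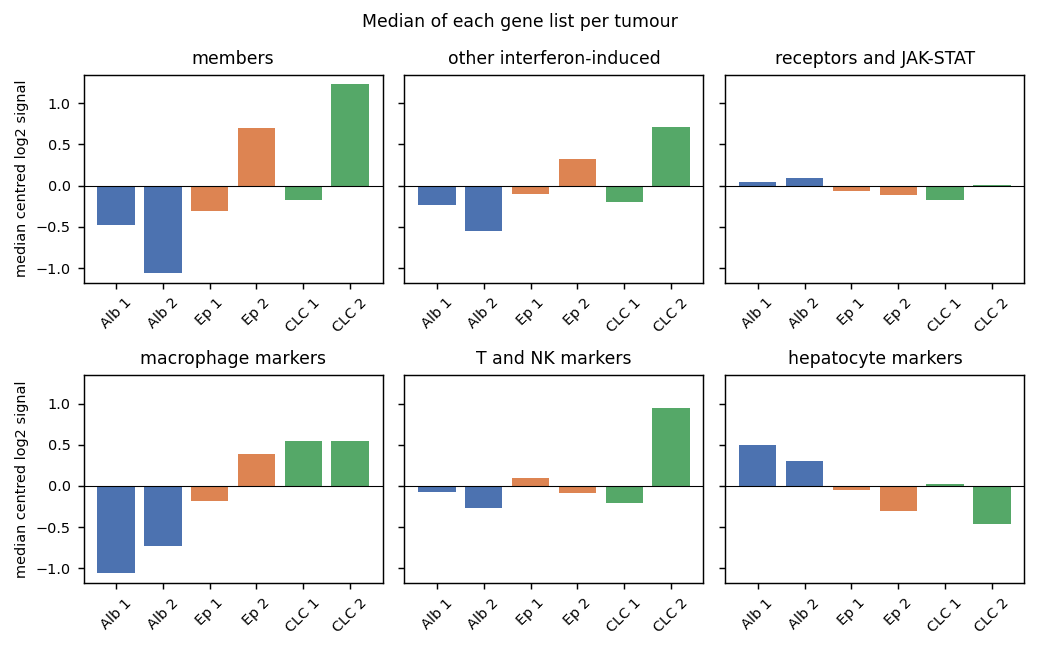
Median of the centred log2 signal (bars) of 6 gene lists in each tumour (Alb, Albumin-derived; Ep, Epcam-derived without CLC; CLC, Epcam-derived with CLC; 1 and 2, replicates). The wider interferon-induced list has its highest bar in replicate 2 with CLC and its lowest in replicate 2 of the Albumin-derived tumours, as the members do, and the receptor list stays within -0.18 and 0.09.

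These are whole tumours, in which fewer cells of a type and less RNA per cell cannot be told apart, so markers of the cells a liver tumour can hold are given beside the members. Of 14 macrophage and Kupffer cell markers, all measured, 12 were higher with than without CLC. Against the Albumin-derived tumours, 12 were higher without CLC and 11 with CLC. The medians were 0.53, 0.88 and 1.53, and limma called 0 at an adjusted p under 0.05. At an unadjusted p under 0.05, where 1.31%, 11.7% and 7.95% of all features were higher, limma found 1, 3 and 5 of these markers higher. Their summed linear signal, in units of the 75th percentile, was 65.5 and 94.1, then 98.2 and 135.5, and then 187.6 and 137.1. Unlike the members, it was highest in replicate 1 with CLC. Ccr2, a marker of recruited monocytes, read -2.73, -2.53, -2.54, -0.55, -1.67 and 0.13, so it was highest in replicate 2 of both Epcam-derived groups. Not every marker of the list shared that order. Ly6c2 read 3.72, 3.84, 3.85, 3.52, 3.26 and 4.28, so without CLC it was lower in replicate 2. Clec4f read 1.37, -1.11, 0.11, 2.51, 3.91 and 1.36 and was highest in replicate 1 with CLC. No macrophage marker was absent from all tumours. The sum of the 14 moved apart from the members in the tumours with CLC, mainly through Cd5l and Clec4f. Their centred median, in which each gene counts alike, did not differ there. It was -1.05 and -0.73 in the Albumin-derived tumours, -0.19 and 0.39 without CLC, and 0.54 and 0.54 with CLC.

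T and NK cell markers were summed at 38.5 and 22.0, 47.6 and 30.7, and 17.6 and 29.2, a sum in which Cd4 holds most of the signal. Of the 11 measured, 7 were higher with than without CLC. Against Albumin, 9 were higher without CLC and 7 with CLC. Limma called 0 at an adjusted p under 0.05. At an unadjusted p under 0.05 limma found 1, 1 and 2 higher in that order, against 1.31%, 11.7% and 7.95% of all features. Lower were 1, 0 and 0. Gzmb lay above Albumin by 1.73 ± 0.26 without CLC and 2.06 ± 0.26 with CLC (limma, adjusted p = 0.0740 and 0.0751). The centred median of the 11 measured, in which each gene counts alike, was highest in replicate 2 with CLC (0.95) and lowest in replicate 2 of the Albumin-derived tumours (-0.27), the same extremes as the members. Ncr1 of the NK cells was not above background in any tumour. Hepatocyte markers, all 11 measured, summed to 5202 and 4740 in the Albumin-derived tumours, 3301 and 2722 without CLC, and 3550 and 2588 with CLC, so the labelled tissue was present in each and the sum was lowest in replicate 2 with CLC. Plasmacytoid dendritic cells are known for making interferon. Beside Bst2, which is a member and was left out here, 6 of their markers were measured. These summed to 224.4 and 232.6, 226.5 and 193.9, and 200.7 and 179, a sum in which Siglech holds most of the signal. One of the 6, Cox6a2, which is also a muscle-type subunit of cytochrome oxidase, was lower by limma in both Epcam-derived groups than in the Albumin-derived group, with differences of -7.10 ± 0.45 and -7.11 ± 0.45 (adjusted p = 0.0234 and 0.0340), and the other 5 were not called.

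Bile duct markers were higher with than without CLC in 7 of 9, with a median of 1.19. With CLC against Albumin 8 of 9 were higher, with a median of 0.96. Limma called 0 at an adjusted p under 0.05 in each. At an unadjusted p under 0.05 limma found 3 higher in each, against 1.31% and 7.95% of all features. Of the 3 against Albumin, 1 was not above background in the Albumin-derived tumours, which leaves 2 measured on both sides. The sums of the bile duct markers were 6.31 and 40.1, 46.8 and 30.5, and 61.9 and 111.3, and Spp1 holds most of the signal in them. The centred median of the 9 was highest in replicate 2 with CLC (0.66), the tumour that had the highest members. It was lowest in replicate 1 of the Albumin-derived tumours (-1.01), where the members were lowest in replicate 2. Endothelial markers were higher with CLC than in the Albumin-derived tumours in 9 of 9, with a median of 0.58 and 1 unadjusted limma p under 0.05, and their sums of 26.5 and 11.3, 27.8 and 24.8, and 39.7 and 20.3 were lowest in replicate 2 of the Albumin-derived tumours. Neutrophil markers (5 of 9 measured, with Ngp and Mmp9 not above background in any tumour) summed to 91.4 to 109. B and plasma cell markers (7 of 8 measured) summed to 3.91 to 7.11. Csf3r holds most of the first sum, and Sdc1 the largest part of the second. The centred medians of both lists were highest in replicate 1 with CLC, at 0.72 and 0.42. Both lists had no call by limma and at most 1 unadjusted p under 0.05 a comparison. How far the makeup of the tumours goes with the interferon-stimulated genes was not tested.

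Where a gene had several probes, the others were read as a check. The members had 18 further probes, of which 5 had the opposite sign to the probe used in 1 comparison each, for Ddx58, Ifi27, Parp9, Stat2 and Xaf1. The second probe of Oasl1 gave 3.08 with CLC against Albumin, and that of Irf7 gave 2.18. A second probe of Oas2 was well above background on 1 array and gave 0.92 where the probe used gave 2.06.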

How the data were processed

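RNA of 6 frozen tumours (0.1 µg each) was labelled with Cy3 and hybridised to 1-colour Agilent arrays. The deposited scanner files hold intensity, the processed signal, which is background-subtracted and was written by Agilent's Feature Extraction software, version 11.5.1.1 per the file headers, and yes/no marks for spots well above background, saturated or outlying, per the file headers. No depth exists for arrays; 2 tumours a group limit the precision. From there, log2 of the processed signal minus each array's 75th percentile was taken, control spots (of 62976) and outlier spots were left out, spots of a probe were averaged, and a probe stayed in if some group had both of its arrays well above background. The brightest probe by mean stood for a gene, which gave 27412 features, 15868 with a symbol. Accessions were named through a RefSeq table of GRCm38.p6, while the array's own annotation uses mm9, whose coordinates are not printed.

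Differences were fitted over all 6 arrays and all features with limma 3.58.1 in R 4.3.3 (lmFit and eBayes, 3 residual degrees of freedom), with Benjamini-Hochberg adjustment in each of 3 comparisons and a threshold of 0.05. The procedure was tested on simulated data. A value printed with SE and p is one of the 6 members with the smallest p in a comparison; beside Ifnb1, Ifng, Ifnar1 and Ifngr1, other pathway genes come from the 3 smallest p-values of their list, and only some of those are given, to keep to the members; look-alikes are the 10 highest r. Ccr2, Ly6c2, Gzmb, Ncr1, Cox6a2, Ngp, Mmp9, the markers named for their part in a sum and single second probes were chosen after their values were seen. The 35 genes, the other lists and the tests were chosen with earlier results of these data known. The deposited series table was, per array, a constant multiple of the processed signal. Replicate numbers in the labels name tumours and state no shared animal or day. Alternatives changed the background correction, scaling, filter, probe choice, slide and replicates.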

Additional observations from a re-analysis of the deposited data

How the results depend on the processing

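Limma called 0 members in every comparison under all alternatives run (19, 18 and 19 of them for with against without CLC, without CLC against Albumin and with CLC against Albumin). The median member difference with against without CLC reversed to -0.12 without replicate 1 of the tumours without CLC and to -0.39 without replicate 2 of those with CLC (highest without a tumour 1.03), and Parp9 to -0.013 (highest without a tumour 0.77); within slide 2 and with slide as a block the median was 1.03. Without CLC against Albumin, slide as a block gave -0.61 for the median and -0.73 for Oasl2, and with CLC against Albumin the median was 0.42 within slide 1 or with the slide block and 0.42 to 2.02 with 1 tumour left out. Features called without CLC against Albumin, 67, became 135 with normexp on the median signal (chosen after seeing the data, since the planned mean signal was not in the columns used and was not run), 102 with quantile normalization, 106 with the median as scale, 1 with no filter on dim probes, 32 with all 6 arrays above background, 110 with the mean of a gene's probes, 40 with symbols only, 16 with the 2 groups alone, 0 with slide as a block, 118 with slide as a random block, 11 with the replicate block and 0 to 16 with a tumour left out. With CLC against Albumin, 17 became 66, 66, 35 and 1 for the first 4 of these, and 0 with the 2 groups alone, slide as a block, within a slide, the replicate block and any tumour left out. The replicate block left every member uncalled; deviations of same-numbered tumours correlated at -0.16, 0.06 and 0.23 between the groups, and the numbers are not a stated pairing. Under another scaling the sign turned for Irf1 and Isg15 with against without CLC and for Bst2, Ifi27 and Stat2 with CLC against Albumin. With 2 tumours a group and spreads this wide, an uncalled member is not shown to be equal between groups, and slide 1 arrays had fewer probes above background. Where a left-out tumour leaves 1 in a group, that tumour is assumed to vary like the others.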
